A study of Mus musculus with 6 samples.

Results

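The 48 genes described here encode the contractile filaments, Z-disc proteins, calcium-handling proteins and energy-supply enzymes of skeletal muscle. They were taken by gene name from a list, and all 48 were represented on the array, by 85 probes. Of these genes, 36 had a probe bright enough to be tested, among 19741 gene features tested in all. Total RNA of skin tumours was measured on 6 one-colour Agilent arrays, 3 from P2ry6+/+ mice (WT 1 to WT 3) and 3 from P2ry6-/- mice (KO 1 to KO 3). All mice were male, and the back skin of both genotypes was shaved and given 195 nmol of DMBA, a mutagen, and then doses of 16 nmol of TPA, a tumour promoter, 2 times a week until week 22. P2ry6 is the gene of a cell-surface receptor that senses extracellular uridine diphosphate, and the study compared tumours with and without it. Tumours are numbered within a genotype, and nothing in the labels ties them to different mice, so every p-value reflects only how these samples vary, which may be technical. The mouse strain, the age, the deleted part of the gene and the depth to which each tumour was cut from the skin are not given in the sources used here.

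Skeletal muscle shortens when thick filaments of myosin pull on thin filaments of actin, which are anchored at the Z-disc. Calcium released from the sarcoplasmic reticulum binds troponin on the thin filament and so permits the pull, and a calcium pump ends it. Fast and slow fibres use different genes for many of these parts, and in mouse back skin a thin sheet of such muscle, the panniculus carnosus, lies beneath the fat layer.

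Each value below is the log2 signal of a gene's brightest probe minus the array's 75th percentile, so 0 lies at that percentile, and a difference is the mean of the P2ry6-/- arrays minus the mean of the P2ry6+/+ arrays. The arrays had 54.2% to 59.4% of their non-control spots well above background, and their number limits the precision. The 75th percentile was 322 to 368 units of signal on the P2ry6+/+ arrays and 277 to 300 units on the P2ry6-/- arrays. The P2ry6 transcript was not lower in the tumours labelled as lacking the gene. Its brighter probe read 0.38, 0.33 and -0.21 in WT 1 to WT 3 and 0.57, 0.70 and 0.45 in KO 1 to KO 3, a difference of 0.41 (SE 0.20, limma adjusted p = 0.466). Every direction below therefore follows the labels. Keratinocyte markers, which check the tissue, were above background for 9 of 9 genes on every array, with a mean level of 7.59 to 7.75 in the P2ry6+/+ tumours and of 7.93 to 7.94 in the P2ry6-/- tumours.

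More of the muscle genes were detected in the P2ry6+/+ tumours, at higher levels, and to very different extents in the 3 tumours of that genotype. Over all 48 genes, the brightest probe was well above background for 36 genes in WT 1, 46 in WT 2 and 42 in WT 3, against 19 in KO 1, 21 in KO 2 and 18 in KO 3. The mean level over the 48 genes was -2.54, 1.19 and -1.59 in WT 1 to WT 3 and -3.73, -3.98 and -3.88 in KO 1 to KO 3. Every P2ry6+/+ tumour thus lay above every P2ry6-/- tumour in this mean. WT 2 stood well apart from the other 2 tumours of its genotype. A genotype difference past the limma threshold (adjusted p under 0.05) was found for 0 of the 36 genes tested, against 32 features of the array, or 0.162%. Of those features, 22, or 0.111%, were lower in the P2ry6-/- tumours. The smallest adjusted p of a muscle gene was 0.0804. At an unadjusted p under 0.05 with at least a 2-fold difference, 27 of the 36 were lower in the P2ry6-/- tumours, where 2.39% of all features were. A difference of at least 2-fold, whatever its p, was seen in 31 of the 36 and in 3.39% of all features. The genotypes did not overlap, with P2ry6+/+ higher, for 29 of 36 genes and for 7.37% of all features. The 36 include 15 genes that had to differ because of the filter described below.

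**Figure D1:**
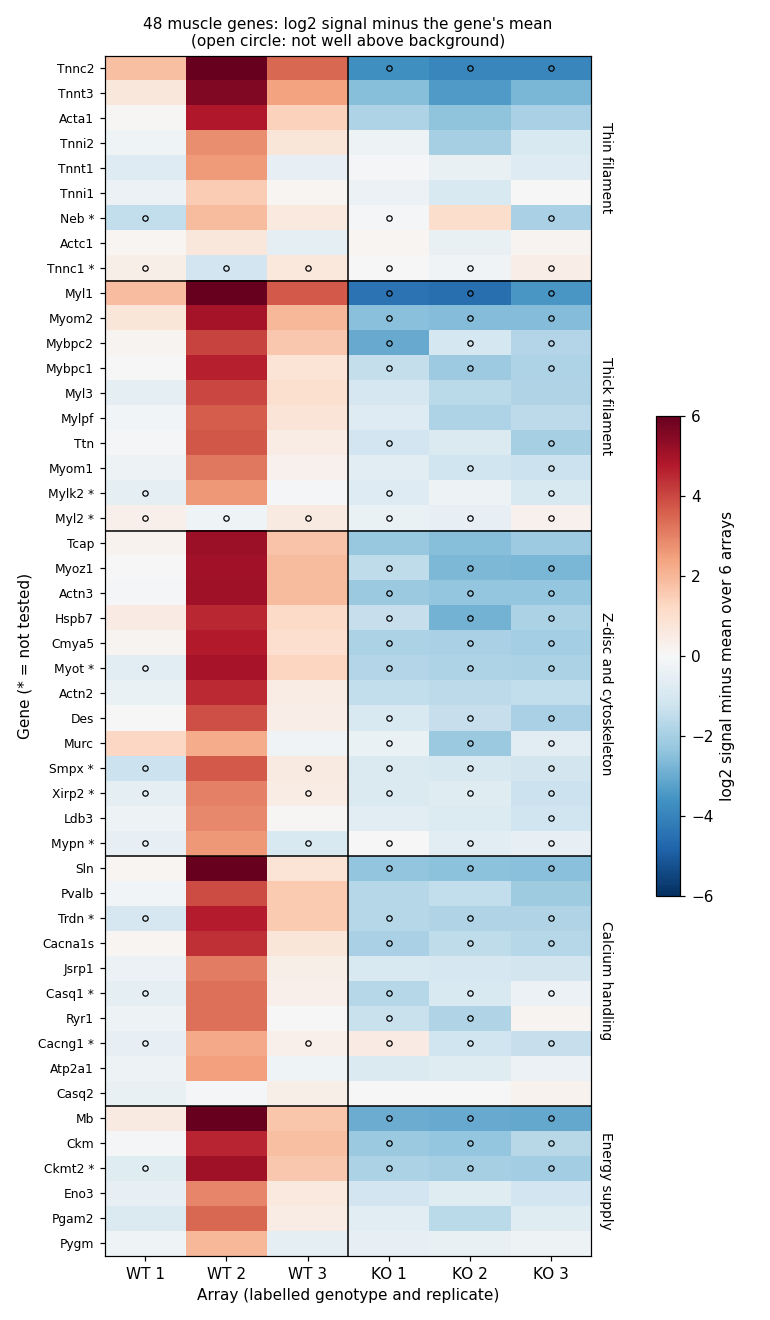
The log2 signal of each of the 48 genes minus its mean over the 6 arrays (colour), by role group and array; an open circle marks a probe not well above background on that array and an asterisk a gene that was not tested. WT 2 holds the deepest red in most rows, and the open circles gather in the 3 P2ry6-/- columns, where 18 to 21 genes were above background.

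The filter on dim probes let 15 of the 36 genes in through the P2ry6+/+ arrays alone, since they were not above background on any P2ry6-/- array, as was the case for 0.866% of all features. Such genes had to differ, and for them only a lower bound of the fold is given below. Genes above background on every array are free of this limit, and most of them lay on the same side. Of the 17 genes above background on all 6 arrays, 16 had a value below 0, with a median difference of -2.06 against 0.02 over the 18340 features of this kind. At an unadjusted p under 0.05 with at least a 2-fold difference, 10 of these 17 were lower, against 266 of the 18340. P2ry6+/+ was higher without overlap for 11 of the 17 and for 1195 of the 18340. Taking all 48 genes with no filter, 46 had a value below 0 and the median was -2.74, against 0.19 over all features. That set still holds the 15 genes, and others, that no P2ry6-/- array measured above background, so it is not free of the limit. In the tested set, 35 of 36 genes lay below 0, as did 47.9% of all features, and the median was -2.99 against 0.02. With the 15 dim genes set at their bound the median was -2.48.

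Among thin filament genes the fast-fibre troponins and skeletal actin had the largest differences. Tnnc2, the calcium-binding troponin of fast fibres, read 1.53, 6.02 and 3.18 in WT 1 to WT 3 and -3.94, -4.17 and -4.18 in KO 1 to KO 3. No P2ry6-/- array measured it above background, and it was at least 175-fold lower there (difference -7.67, SE 1.03, limma adjusted p = 0.0804). Tnnt3, the fast troponin that binds tropomyosin, read 0.64, 5.48 and 2.37 against -2.63, -3.44 and -2.80. It was above background on all 6 arrays and differed by -5.79 (SE 1.12, limma adjusted p = 0.170). Both troponins had every P2ry6+/+ tumour above every P2ry6-/- tumour, with WT 2 the highest and WT 1 the lowest of its genotype. Skeletal alpha-actin, Acta1, the main actin of the thin filament, read -0.20, 4.51 and 1.09 against -2.15, -2.69 and -2.22, again with no overlap (difference -4.15, SE 1.11, limma adjusted p = 0.237). Tnni2, the inhibitory troponin of fast fibres, was at 2.90, 5.97 and 3.89 in P2ry6+/+ tumours and at 2.87, 1.20 and 2.24 in P2ry6-/- tumours, so that the groups did not overlap but WT 1 and KO 1 were nearly equal (difference -2.15, SE 0.81, limma adjusted p = 0.342).

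The slow-fibre and cardiac members of the thin filament did not separate the genotypes. Tnni1, the slow inhibitory troponin, read -0.54, 1.29 and -0.08 against -0.54, -1.15 and -0.26, and the groups overlapped. Tnnt1, the slow tropomyosin-binding troponin, was raised in WT 2 alone, at 0.12, while the other 5 arrays lay between -3.22 and -2.56. Actc1, the actin of heart and of developing skeletal muscle, read -0.50, 0.04 and -1.19 against -0.52, -1.08 and -0.46, a difference of -0.14 (SE 0.34, limma adjusted p = 0.893). Tnnc1, the slow and cardiac calcium-binding troponin, was not well above background on any of the 6 arrays. Neb, which encodes the giant thin-filament protein nebulin, was not tested. Its brightest probe was above background in WT 2, WT 3 and KO 2 only. Another Neb probe, annotated to a RefSeq transcript, read -4.82, 0.77 and -3.13 against -6.05, -6.14 and -6.13. That probe was above background in WT 2 and WT 3 only, and the remaining Neb probes in WT 2 alone.

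Among thick filament genes the light chain gene Myl1 had the largest difference. Its value of -8.29 was the lowest of the 48, but its bound of 79.3-fold was below the 175-fold of Tnnc2. Myl1 encodes the essential light chains of fast myosin, and its brightest probe read 0.13, 5.18 and 1.99 in WT 1 to WT 3 and -6.13, -6.24 and -5.18 in KO 1 to KO 3. It was at least 79.3-fold lower in the P2ry6-/- tumours (difference -8.29, SE 1.18, limma adjusted p = 0.0883). Myom2, an M-line protein that ties thick filaments together, read -2.76, 1.52 and -1.49 against -5.97, -6.06 and -6.08, at least 7.80-fold lower (adjusted p = 0.170 by limma). Both genes were measured in all 3 P2ry6+/+ tumours and in no P2ry6-/- tumour. Mybpc2, the fast myosin-binding protein C, read -2.90, 0.96 and -1.48 against -6.08, -4.13 and -4.82, at least 6.66-fold lower (adjusted p = 0.231 by limma). Its slow relative Mybpc1 read -2.90, 1.77 and -2.10 against -4.32, -5.10 and -4.76, at least 6.96-fold lower (adjusted p = 0.283 by limma). In each of these 4 genes WT 2 was the highest array by more than 2 units of log2.

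The other 4 thick filament genes tested were above background in at least 1 P2ry6-/- tumour. They also showed no overlap, with P2ry6+/+ higher, against 7.37% of all features. The regulatory light chain of fast fibres, Mylpf, differed by -2.81 (SE 0.93) and the slow and cardiac light chain Myl3 by -2.95 (SE 1.06). The giant elastic protein gene Ttn differed by -2.68 (SE 0.97), and Myom1, the M-line protein related to Myom2, by -2.09 (SE 0.87). Their limma adjusted p-values lay between 0.300 and 0.376. Myl2, the slow and cardiac regulatory light chain, was not well above background on any array. Mylk2, the kinase of skeletal myosin light chains, read -0.82 in WT 2 and between -4.32 and -3.47 on the other 5 arrays.

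Probes of the same gene did not always give the same difference, and Myl1 shows how far they could part. The starts of 3 of its probes, the first 30 of 60 bases as the array files give them, are printed because the value of Myl1 turns on which one is read.

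Myl1 brightest probe: ttataagccttgagttttcatgacaaacat
Myl1 second probe: ctgcatcaactatgaagcttttgtcaaaca
Myl1 distant probe: agaatactacatgcgaggtttgtgttagct

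The brightest probe lies at chr1:66970948-66971007 on the minus strand (mm9), and the second, at chr1:66971597-66972798, gave a difference of -7.55. Both carry RefSeq transcripts of Myl1 in the array's annotation. The distant probe, at chr1:66991114-66991173, is annotated to a separate Ensembl transcript model. It read -3.32, -1.67 and -2.72 in WT 1 to WT 3 and -0.75, -3.76 and -3.53 in KO 1 to KO 3, a difference of -0.11, with KO 1 the highest array. In the same way a second probe of Mylpf, annotated to a predicted RefSeq transcript alone, differed by 0.0067, and a second probe of Ryr1, annotated to a cDNA clone, by 0.39. The other probes of Tnnt3 differed by -7.49 and -7.81 and those of Ttn by -5.57, -3.68 and -1.33. A second probe of Tnni1 differed by -0.99.

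Z-disc and cytoskeletal genes formed the largest group. All 9 that were tested had P2ry6+/+ tumours above P2ry6-/- tumours without overlap, against 7.37% of all features. Of the 9, 6 were not above background in any P2ry6-/- tumour. Those 6 entered the test through the P2ry6+/+ arrays alone and had to differ. Tcap, which encodes telethonin, the cap of titin at the Z-disc, read -0.34, 4.57 and 1.15 against -2.81, -3.12 and -2.71 (difference -4.67, SE 1.14, limma adjusted p = 0.217). It was above background on every array. Hspb7, a small heat shock protein of muscle, read -2.83, 1.20 and -2.15 against -4.70, -6.14 and -5.21, at least 6.12-fold lower in the P2ry6-/- tumours (adjusted p = 0.229 by limma). Myoz1, a calcineurin-binding Z-disc protein of fast fibres, read -3.46, 1.56 and -1.58 against -5.01, -6.17 and -6.20, at least 6.57-fold lower (adjusted p = 0.231 by limma). Actn3, the alpha-actinin of fast fibres, read -3.92, 1.26 and -1.95 against -6.06, -6.15 and -6.14, at least 5.06-fold lower (adjusted p = 0.231 by limma). The last 3 genes were not above background in any P2ry6-/- tumour.

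The remaining Z-disc and cytoskeletal genes had smaller differences or were dim. Actn2, the alpha-actinin of all fibre types, differed by -3.03 (SE 1.18), and Ldb3, a Z-disc adaptor that binds alpha-actinin, by -1.76 (SE 0.81). The next were not above background in any P2ry6-/- tumour. Cmya5, a large cytoskeletal protein of striated muscle, was at least 3.71-fold lower, the muscle intermediate filament gene Des at least 3.81-fold lower, and Murc, a caveolar protein of muscle, at least 2.51-fold lower. The limma adjusted p-values of these 5 genes lay between 0.249 and 0.416. Of the Z-disc genes that were not tested, Myot was above background in WT 2 and WT 3, and Mypn, Smpx and Xirp2 in WT 2 alone.

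**Figure D2:**
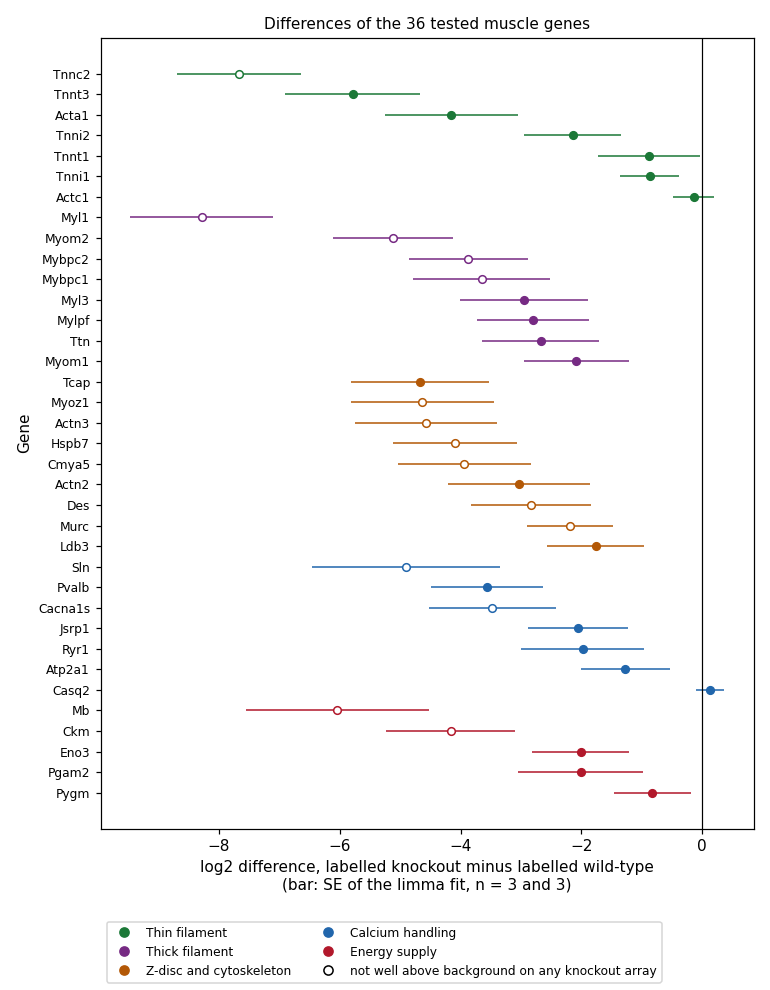
Difference in log2 signal between genotypes for each of the 36 tested genes, P2ry6-/- minus P2ry6+/+, with the standard error of the limma fit (n = 3 arrays a genotype) and colours for role groups; open points were not well above background on any P2ry6-/- array. The points run from -8.29 for Myl1 to 0.12 for Casq2, and Actc1, Casq2, Pygm, Tnni1 and Tnnt1 sit nearest to 0.

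Genes of calcium handling were less uniform. Pvalb, which encodes the calcium buffer parvalbumin of fast fibres, read -0.41, 3.63 and 1.33 in WT 1 to WT 3 and -1.99, -1.76 and -2.37 in KO 1 to KO 3 (difference -3.56, SE 0.93, limma adjusted p = 0.234). Cacna1s, the voltage sensor that starts calcium release, read -2.58, 1.70 and -1.96 against -4.65, -4.23 and -4.40, at least 7.60-fold lower in the P2ry6-/- tumours (adjusted p = 0.271 by limma). Sln, which encodes sarcolipin, an inhibitor of the calcium pump, read -3.55, 2.78 and -2.87 against -6.05, -6.13 and -6.19, at least 6.32-fold lower (adjusted p = 0.291 by limma). For Cacna1s and Sln, WT 2 was the only tumour above 0, and no P2ry6-/- tumour measured either gene above background. Jsrp1, a protein of the junction between the surface membrane and the calcium store, read -1.69, 1.76 and -0.97 against -2.25, -2.36 and -2.45 (difference -2.06, SE 0.82, limma adjusted p = 0.363).

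The pump, the release channel and the calcium store proteins differed less between the genotypes or overlapped. Atp2a1, the calcium pump of fast fibres, read -2.45, 0.33 and -2.39 against -3.01, -2.85 and -2.47, so that the groups did not overlap but only WT 2 stood out. Ryr1, the calcium release channel, overlapped because KO 3, at -2.48, lay above WT 1 and WT 3, at -2.94 and -2.65. Casq2, the calcium-storing calsequestrin of slow fibres and heart, was the only tested gene of the 48 with a value above 0. It read 0.41, 0.72 and 1.21 against 0.80, 0.85 and 1.07, a difference of 0.12 (SE 0.23, limma adjusted p = 0.858). These values rest on the brightest probe alone. A second Casq2 probe, annotated to the same RefSeq transcript, read between -6.63 and -5.96 and was not above background on any array. Casq1, the fast counterpart of Casq2, was above background in WT 2 and WT 3 only. So was Trdn, which encodes triadin, an anchor of calsequestrin. Cacng1, a subunit of the voltage-sensor channel, was above background in WT 2 alone.

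Myoglobin had the largest difference among the energy-supply genes. Mb, the oxygen store of muscle, read -2.39, 3.93 and -1.27 in WT 1 to WT 3 and -5.90, -5.95 and -6.01 in KO 1 to KO 3, at least 15.6-fold lower (difference -6.04, SE 1.51, limma adjusted p = 0.228). Ckm, the muscle creatine kinase that regenerates ATP, read -3.86, 0.81 and -1.97 against -6.0, -6.08 and -5.44, at least 4.60-fold lower (adjusted p = 0.231 by limma). Neither gene was above background in any P2ry6-/- tumour. Eno3, the muscle enolase of glycolysis, was bright on all arrays and read 0.26, 3.66 and 1.32 against -0.43, 0.03 and -0.41 (difference -2.02, SE 0.80, limma adjusted p = 0.358). Pgam2, the muscle phosphoglycerate mutase, read -1.19, 3.14 and 0.13 against -0.97, -1.95 and -1.03, with WT 1 inside the range of the P2ry6-/- tumours. Pygm, the muscle glycogen phosphorylase, was raised in WT 2 alone, at 1.75, with the other 5 arrays between -0.79 and -0.50. Ckmt2, the mitochondrial creatine kinase of muscle, was above background in WT 2 and WT 3 and was not tested.

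**Figure D3:**
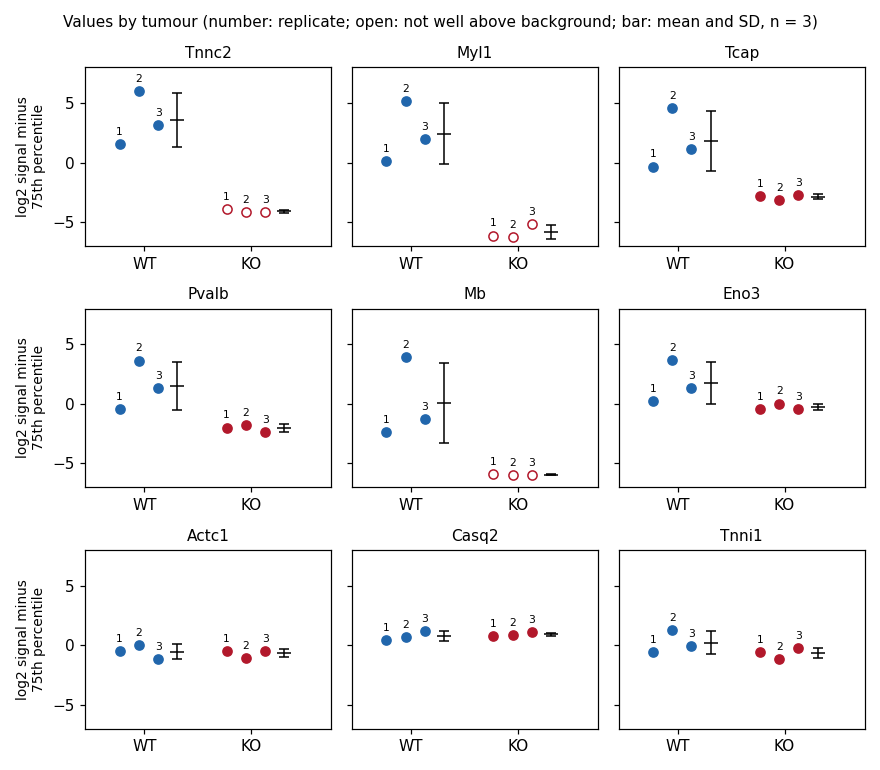
Log2 signal of 9 of the genes in each tumour (numbered points), with the mean and SD of each genotype beside them (n = 3); open points were not well above background. In Tnnc2, Myl1, Tcap, Pvalb, Mb and Eno3 the genotypes do not overlap and WT 2 is highest, while in Actc1, Casq2 and Tnni1 they overlap.

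Genes used by fast fibres and genes used by slow fibres had different values. Of 10 genes of the fast forms, 9, 10 and 10 were above background in WT 1 to WT 3 and 5 in each P2ry6-/- tumour. Of 6 genes of the slow forms, 4 were above background on each of the 6 arrays. Mybpc1, the slow relative of Mybpc2, and Myoz1 of fast fibres were counted in neither list. Both were above background in all 3 P2ry6+/+ tumours and in no P2ry6-/- tumour. The 9 fast genes tested had a median difference of -3.87 and the 4 slow genes tested one of -0.88. Of the 9 fast genes, 4 were not above background in any P2ry6-/- tumour. Those 4 entered the test through the P2ry6+/+ arrays alone and had to differ, as none of the slow genes did. With them set at their bound, the median of the fast genes was -2.81. The difference between these lists was not tested. Among the myosin heavy chain genes, which are not among the 48, the fast and perinatal forms Myh4 and Myh8 were lower in the P2ry6-/- tumours, by at least 82.1-fold and by at least 166-fold in that order (limma adjusted p = 0.0107 and 0.0382). Neither was above background in any P2ry6-/- tumour, so both entered the test through the P2ry6+/+ arrays alone and had to differ. The fast form Myh1 differed by -6.51 (limma adjusted p = 0.196). Myh2, also a fast form, was at least 13.9-fold lower (adjusted p = 0.266 by limma). It was not above background in any P2ry6-/- tumour, so it too had to differ. A second probe of Myh4 passed the filter too and gave a difference of 0.23. The slow form Myh7 differed by -0.10 (limma adjusted p = 0.897).

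For most of the genes the range of the 3 P2ry6+/+ tumours exceeded the size of the difference between the genotypes. Among the genes tested it did not for Tnnc2, Tnnt3, Myl1, Mybpc2, Myom2 and Hspb7. The median SD over the 17 genes above background on all 6 arrays was 1.85 in the P2ry6+/+ tumours and 0.31 in the P2ry6-/- tumours, against 0.26 and 0.20 over the features of this kind. WT 2 was the highest P2ry6+/+ array for 35 of 36 genes, where it was for 30.9% of all features. The order WT 2, WT 3, WT 1 held for 32 of 36 genes and for 12.1% of all features. The exceptions were Actc1, Murc, Pygm and Casq2. The median excess of WT 2 over WT 1 was 4.04 over the 36 genes, and that of WT 3 over WT 1 was 0.83. Each P2ry6+/+ tumour set against the mean of the 3 P2ry6-/- tumours gave a median difference of -1.52 for WT 1, -5.57 for WT 2 and -2.30 for WT 3. WT 1 lay above the highest P2ry6-/- tumour for 30 of 36 genes, WT 2 for 35 and WT 3 for 32, where 31.1%, 22.3% and 33.0% of all features did. The 36 include the 15 genes that the filter let in through the P2ry6+/+ arrays alone. Those 15 had to differ in this direction, as did only 0.866% of all features, so the shares are not alike.

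**Figure D4:**
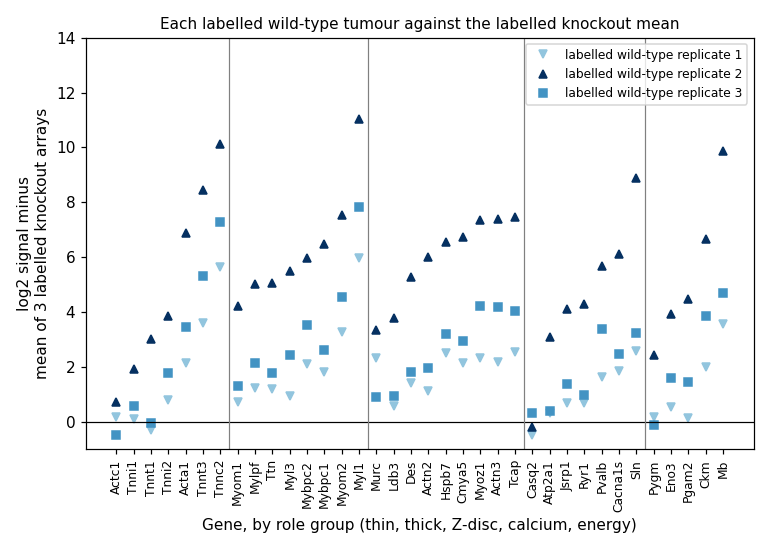
For each of the 36 tested genes, in role groups, the log2 signal of each P2ry6+/+ tumour minus the mean of the 3 P2ry6-/- tumours. The dark triangles of WT 2 lie highest in every gene except Casq2, and WT 1 and WT 3 lie above 0 in most genes.

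The number of muscle genes past the threshold depended on single P2ry6+/+ tumours. Without WT 2, 7 genes passed (Tnnc2, Tnnt3, Myom2, Cmya5, Cacna1s, Sln and Mb), all lower in the P2ry6-/- tumours, although the median difference was then -1.65. Of these, only Tnnt3 was above background in any P2ry6-/- tumour. The others, and the brightest probe of Myl1, entered the test through the P2ry6+/+ arrays alone and had to differ, here and in the fits below. Calls grew over the whole array in that fit, to 125 features, of which 60, or 0.301% of those tested, were lower in the P2ry6-/- tumours. In that fit Myl1 was read from its distant probe, which became the brightest. With the probes kept as over all 6 arrays, 8 genes passed, Myl1 among them at -6.91 (limma adjusted p = 0.0238), against 0.279% of all features lower. Without WT 1, Tnnc2 passed at -8.70 (limma adjusted p = 0.0414), against 0.15% of all features lower. Array weights, which give a divergent array less influence, let Tnnc2 and Myl1 pass at -6.76 and -7.05 (limma adjusted p = 0.0314 and 0.0457), with 89 features passing in all and 0.228% lower. The other background correction tried, normexp, gave a median of -1.67 and 12 genes in place of 27 at an unadjusted p under 0.05 with at least a 2-fold difference, against 1.14% of all features.

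The 6 arrays shared 1 slide and 1 scan, and their positions were not balanced over the genotypes. The second position number in the files was 1, 1 and 2 for WT 1 to WT 3 and 2, 3 and 3 for KO 1 to KO 3, so it nearly follows genotype. Within the single number shared, WT 3 against KO 1 gave a median difference of -1.95, with 33 of 36 genes below 0. The 36 include the 15 genes that had to differ, and 48.4% of all features lay below 0. The first position number held both genotypes at each value. Where it was 1, WT 2 against KO 1 and KO 2 gave a median of -5.41, and where it was 2, WT 1 and WT 3 against KO 3 gave -2.12.

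Other genes of muscle, outside the 48, were detected most often in WT 2 and did not all lie on the same side. Of 47 such genes, 43 were above background in WT 2, against 27 and 29 in WT 1 and WT 3 and 22 to 27 in the P2ry6-/- tumours. The 26 tested had a median difference of -0.98, with 21 below 0 and 5 above 0, and 0 passed the limma threshold. The genotypes did not overlap with P2ry6+/+ higher for 11 of the 26, against 7.37% of all features. They did not overlap with P2ry6-/- higher for 2, Asb2 (0.98) and Fhl3 (0.25), as for 12.1% of all features. Of these 26, 9 had an unadjusted p under 0.05, where 13.2% of all features did, with 8 lower in the P2ry6-/- tumours and Asb2 higher. The smallest p-values belonged to the RNA-editing family gene Apobec2, the muscle cytochrome oxidase subunit gene Cox8b and the LIM-domain gene Fhl1 (-2.94). Apobec2 and Cox8b were at least 9.08-fold and 10.1-fold lower in the P2ry6-/- tumours, where neither was above background. They entered the test through the P2ry6+/+ arrays alone and had to differ, and they are part of the counts above. Regulators of muscle formation were mostly dim. Myod1, Myog and Myf6, transcription factors of the muscle lineage, and Chrng, the fetal acetylcholine receptor subunit, were above background in WT 2 alone. Pax7, the satellite cell factor, was not above background on any array, nor were Myf5 and Mymk. Pax3, a factor of muscle precursors, was above background in WT 2, KO 1 and KO 2. Of the 2 genes of this list that were tested, Mef2c differed by -0.79 and Cdh15 by -0.45.

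Of 10 fat-cell markers tested, 8 had a value below 0 and 2 above 0. Adipoq, the gene of the hormone adiponectin, Cfd, the gene of adipsin, and Car3, a carbonic anhydrase of fat and muscle, were lower in the P2ry6-/- tumours by at least 4.66-fold, 53.3-fold and 39.6-fold (limma adjusted p = 0.00740, 0.00921 and 0.0209), 3 of the 12 genes of that list. The mean level of its 10 tested genes was 1.01, 1.83 and 0.46 in WT 1 to WT 3 and between -2.41 and -2.13 in the P2ry6-/- tumours. Adipoq, Cfd, Car3 and Retn were not above background in any P2ry6-/- tumour, so they too entered the test through the P2ry6+/+ arrays alone and had to differ. Fabp4, the fatty acid-binding protein of fat cells, differed by -0.55 with overlap, Lipe, a lipase, by 0.26 with overlap, and Lep, the gene of leptin, by 0.37 without overlap. The order of the P2ry6+/+ tumours seen in the muscle genes held for 0 of these 10 genes, and WT 1 lay above WT 3 in their mean. Smooth muscle markers had a mean level of 1.17, 1.75 and 1.01 in WT 1 to WT 3 and of 0.61, 0.15 and 0.18 in KO 1 to KO 3, and 0 of 8 tested passed. Of these 8, 4 had an unadjusted p under 0.05, all lower in the P2ry6-/- tumours, against the 13.2% of all features. Tagln differed by -1.20, Cnn1 by -2.0, Synpo2 by -2.62 and Acta2, smooth muscle actin, by -0.16. The part of fat and smooth muscle in the values of the 48 genes was not tested. In such bulk RNA, fewer muscle cells in a sample and less RNA per cell cannot be told apart.

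Counterparts of the muscle genes that other cells use had differences spread around 0. The median difference of 23 such genes was 0.03, and 0 passed the limma threshold, with 3 of 23 at an unadjusted p under 0.05, near the 13.2% of all features. Cytoplasmic actin Actb differed by 0.02, the widespread calcium pump Atp2a2 by 0.21 and the widespread phosphoglycerate mutase Pgam1 by 0.03. The smallest p-values were those of Ckmt1 (0.52), Myl9 (-0.90) and Pygl (0.98). Of 7 heart muscle genes tested, 0 passed, and the 2 at an unadjusted p under 0.05, Nppb and Tnni3, lay on opposite sides of 0. Nppb, a natriuretic peptide gene, differed by -2.08, Tnni3, the cardiac inhibitory troponin, by 0.64, and Myl4, an atrial light chain, by -0.45. Among keratinocyte genes Krt10, Dsp and Krt16 differed by 0.56, 0.46 and 0.40, among fibroblast genes Col1a1, Col3a1 and Col1a2 by 0.96, 0.72 and 0.63, and among endothelial genes Cdh5, Emcn and Kdr by -0.41, -0.39 and -0.19. In these last 3 lists 0 genes passed the limma threshold, with 1 (Krt10), 0 and 0 at an unadjusted p under 0.05, against the same 13.2% of all features.

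**Figure D5:**
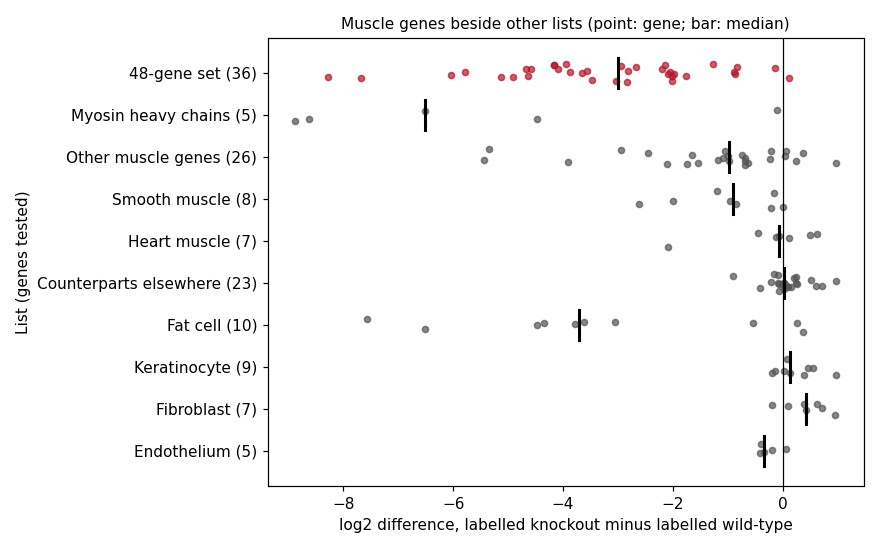
Difference in log2 signal, P2ry6-/- minus P2ry6+/+, of each tested gene (points) and the median (bar) for the 48-gene set and 9 other lists, with the number tested in brackets. The medians of the muscle set, the myosin heavy chains and the fat-cell list lie at -2.99, -6.51 and -3.71, and those of the heart and keratinocyte lists and of the counterparts near 0.

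The sequences before the gene starts hold motifs of known muscle regulators, which were counted because most of the genes varied together from tumour to tumour. MyoD-family factors bind the E-box, MEF2 factors an AT-rich site and serum response factor the CArG box. RefSeq windows (GRCm38.p6) were at hand for 35 of the 48 genes, and the 250 bases before each start were searched on both strands. The E-box CAGCTG, which is 1 form of CANNTG, stood in 42.9% of the 35 genes and in 14.7% of 27025 genes. The wider E-box CANNTG stood in 88.6% and 69.3%, the MEF2 site in 14.3% and 3.42%, the CArG box in 14.3% and 1.62%, and TATAAA in 17.1% and 14.3%. A match is a description of the letters and not of binding. The windows of 4 genes are printed with these motifs in capitals: Acta1, Myl1 and Ckm from genes with large differences, and Casq2, whose difference was 0.12.

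Acta1: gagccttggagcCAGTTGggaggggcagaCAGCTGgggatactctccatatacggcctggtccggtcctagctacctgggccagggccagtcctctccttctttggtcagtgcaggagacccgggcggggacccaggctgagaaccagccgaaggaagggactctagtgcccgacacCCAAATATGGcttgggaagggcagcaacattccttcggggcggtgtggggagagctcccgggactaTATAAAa
Myl1: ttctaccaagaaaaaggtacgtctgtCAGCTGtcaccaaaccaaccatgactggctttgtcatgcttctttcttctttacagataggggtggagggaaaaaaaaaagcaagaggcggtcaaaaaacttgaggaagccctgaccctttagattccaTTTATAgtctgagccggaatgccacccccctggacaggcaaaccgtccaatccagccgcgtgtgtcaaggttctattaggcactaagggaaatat
Ckm: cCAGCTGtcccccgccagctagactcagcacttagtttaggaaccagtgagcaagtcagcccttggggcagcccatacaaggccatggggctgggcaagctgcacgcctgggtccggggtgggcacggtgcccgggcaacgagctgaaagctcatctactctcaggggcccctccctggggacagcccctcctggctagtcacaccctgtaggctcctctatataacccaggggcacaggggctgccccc
Casq2: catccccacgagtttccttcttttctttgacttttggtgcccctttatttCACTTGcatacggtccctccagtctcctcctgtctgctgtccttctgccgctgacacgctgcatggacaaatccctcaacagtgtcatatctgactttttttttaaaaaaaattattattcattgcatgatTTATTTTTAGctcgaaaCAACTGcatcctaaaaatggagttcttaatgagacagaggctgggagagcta

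The windows lie at chr8:123894776-123895025 on the minus strand for Acta1, chr1:66945057-66945306 on the minus strand for Myl1, chr7:19410844-19411093 on the plus strand for Ckm and chr3:102086165-102086414 on the plus strand for Casq2. Acta1 holds the E-box CAGCTG 221 bases and a CArG box 73 bases before its start. Myl1 holds CAGCTG 224 bases before its start, and Ckm holds it 249 bases before its start. Casq2 holds a MEF2 site 69 bases before its start and no CAGCTG. These 4 windows do not stand for the whole set. Tnnc2 (-7.67), Hspb7 (-4.09), Cmya5 and Mybpc2 held no CAGCTG, while Tnni1 (-0.87), Pygm (-0.82) and Atp2a1 (-1.27) held it. Whether the motif goes with the size of a difference was not tested.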

How the data were processed

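Total RNA of 6 skin tumours (0.2 ug each) was labelled with Cy3 and hybridised to one-colour Agilent arrays, per the labels' protocols. The authors deposited linear spot intensity, which the submitters' processing notes credit to Agilent Feature Extraction 10.7.1.1, and the processed signal is already corrected for background, per the file headers. Log2 values for the whole series, also deposited by the authors, correlated with the scanner values at r of at least 0.999 over 56605 probes. Each column of them has a median of 4.97, and how they were normalized was not given in the sources used here. Probe coordinates are on mm9, per the file headers.

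From the log2 processed signal of an array, its 75th percentile across probes other than controls was subtracted. Outlier spots (68 to 184 per array) were left out, 0 spots were saturated, and spots of a probe were averaged. To be tested, a probe had to be well above background on all 3 arrays of either genotype, and the probe with the highest mean over the 6 arrays stood for its gene. Probes were named through RefSeq names (GRCm38.p6), 33903 by accession, 9458 by symbol and 488 by synonym, while 12756 kept the array's name. Genotypes were compared with limma 3.58.1 (R 4.3.3, lmFit and eBayes) in two-sided tests, Benjamini-Hochberg adjusted over all features, at a threshold of 0.05. The fit was tested on simulated data. An exact permutation test of 3 arrays against 3 cannot give a p below 0.1, and it gave 0.1 for the 29 genes whose genotypes did not overlap. For a probe not above background on any P2ry6-/- array, the fold is the P2ry6+/+ mean over the mean, per array, of the higher of the probe's own signal and the lowest signal well above background, and is given as "at least".

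The 48 genes and the other lists were chosen with earlier results of these data known. Given in full were genes past the threshold and the 4 with the smallest p in each role group. Probes that disagreed, the 3 smallest p of every other list and all untested genes are named as well, and some further genes of those lists were chosen after their values were seen. The alternatives were no filter, a filter on all 6 arrays, median centring, quantile normalization, normexp (offset 50), the mean over probes, trend and robust eBayes, array weights, the deposited log2 values, the replicate number and the first of the 2 unnamed position numbers in the file headers (taken as the slide column) as blocks, and each array left out. Leaving out arrays with probes kept was added after seeing the data.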

Additional observations from a re-analysis of the deposited data

How the results depend on the processing

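The count of 0 muscle genes past the threshold stayed at 0 under every alternative except array weights (2) and leaving out P2ry6+/+ arrays, where leaving out single arrays gave 0 to 7, or 0 to 8 with probes kept. The median difference of the muscle genes stayed below 0 throughout, from -3.98 without WT 1 to -1.65 without WT 2. Over all features, 32 passed, but 10 under normexp, 18 with no filter, 5 with the filter on all 6 arrays, 89 with array weights, 21 with the first position number as a block, and 13 to 125 without single arrays (10 to 120 with probes kept, 16 being the count without KO 1). The replicate number as a block left 5 features and 0 muscle genes, with a smallest limma adjusted p of 0.120 among the muscle genes. Deviations of same-numbered arrays correlated at 0.06, 0.26 and 0.14. Arrays of unlike number were not set beside them, so these values cannot tell whether same-numbered tumours were linked. Ryr1 reversed with the filter on all 6 arrays (0.39), where another of its probes was read. Without single arrays, Ryr1 ranged from -2.63 to 0.31 and Myl1 from -8.75 to 0.34, both reversed without WT 2, where another probe was read. Actc1 ranged from -0.46 to 0.16 (0.056 without KO 2), Tnnt1 from -1.48 to 0.18 and Casq2 from -0.059 to 0.34, and these reversals stood with probes kept; the cause was not tested. Signal over background limits the 15 genes that no P2ry6-/- array measured.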
